A study of Mus musculus with 11 samples.

Results

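The fatty acid desaturases and elongases described here are 10 genes, Scd1, Scd2, Scd3, Scd4, Fads1, Fads2, Fads3, Elovl3, Elovl5 and Elovl6, out of 29955 gene symbols in the RNA-seq files. They were chosen by name, and the sense row that the files mark as representative of each symbol was used. RNA was from im-scWAT cells, which are mouse preadipocytes of inguinal subcutaneous white fat that were immortalized with a retrovirus for large T antigen. An untransduced time course held 6 samples, at days 0, 4 and 8 of differentiation, each with and without rosiglitazone (ROS, 0.5 μM), a ligand of PPARγ that turns the cultures toward beige adipocytes. ROS came in with the induction medium (indomethacin, dexamethasone, a phosphodiesterase inhibitor, insulin and triiodothyronine) at day 0, and both cultures of that day are therefore untreated preadipocytes. A further 5 samples were adipocytes of day 8 with ROS. As preadipocytes they had received a retroviral hairpin (U6 promoter) against mouse Jmjd1a (Kdm3a in the files), a histone H3K9 demethylase, and a second retrovirus for human JMJD1A driven by the viral LTR, each followed by drug selection. The human protein was wild type in WT A and WT B. In S265A the serine phosphorylated by protein kinase A was replaced by alanine. It was replaced by aspartate, which mimics the phosphate, in S265D, and S265D-H1120Y carried a further change that inactivates the demethylase. Only day 0 and WT had 2 samples, and every other condition had 1. Nothing in the labels says that samples of a group were separate cultures, so p-values measure the spread between these samples, which may be technical. By the labels ROS was withdrawn at day 7, whereas the methods keep it in the medium to day 8, and samples were therefore grouped by the presence of ROS alone.

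Fatty acids made in the cytosol are mostly saturated, and enzymes of the endoplasmic reticulum then lengthen and desaturate them. Stearoyl-CoA desaturases (Scd genes) place the first double bond in palmitate and stearate and so make palmitoleate and oleate, the main monounsaturated acids of fat stores. The Fads1 and Fads2 enzymes act on dietary polyunsaturated acids. Elovl enzymes carry out the condensation step that lengthens the chain, each with its own preferred substrates. Elovl3 is best known from brown fat, where its mRNA rises strongly in the cold, and it is widely used as a marker of brown and beige adipocytes.

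The deposited unit was FPKM, a level scaled by exon length and by depth, which the authors worked out from mapped bases. Totals of mapped bases were 3.10 to 5.29 Gb per sample with a median of 4.64 Gb, and 100 bases on 2 kb of exon were worth an FPKM of 0.00944 to 0.0161. The targeted gene Kdm3a had an FPKM of 13.0 to 28.5 in the 5 transduced samples and 15.1 to 23.2 in the 6 others, so no knockdown was visible in its row. Reads of the mouse gene and of the human transgene cannot be told apart in this row. The paper reports that the hairpin depleted mouse JMJD1A, by immunoblot and qPCR. It also reports human WT and S265A protein at a level like that of the native protein. The adipocyte marker list (Adipoq, Plin1, Fabp4 and 7 more) summed to 282 and 285 FPKM at day 0 and to 12174 to 37657 in the adipocytes of days 4 and 8, and all but Lep rose. Adipocytes were thus seen in their markers. Of 6 preadipocyte markers in the test of adipocytes against day 0 below, 4 fell, Pdgfra rose and Ly6a did not pass. Ly6a had 424 and 484 FPKM at day 0 and 495 at day 8 without ROS. Ptprc, Emr1, Myod1, Myf5 and Ckm, of the macrophage and muscle lists, were at 0 FPKM in all 11 samples. Acta1, a muscle actin and the remaining gene of the muscle list, had 0.224 to 19.3 FPKM and was highest in WT B. The macrophage list summed to 0.602 to 22.0 FPKM, mostly from Cd68, and the endothelial list to 0.353 to 4.00. In these bulk samples fewer adipocytes and less RNA per adipocyte cannot be told apart.

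In mm9, 8 of the 10 genes lie on chromosome 19, in 2 clusters and a single gene. Fads3 (chr19:10116038-10134161), Fads2 (chr19:10138654-10175993) and Fads1 (chr19:10257378-10271362) are neighbours, with 4.49 kb between Fads3 and Fads2. Scd3 (chr19:44277778-44318506), Scd2 (chr19:44368166-44381352), Scd4 (chr19:44407816-44421233) and Scd1 (chr19:44468940-44482199) form the other cluster, and Elovl3 (chr19:46206389-46210184) lies 1724 kb beyond Scd1. Elovl5 (chr9:77765172-77832326) and Elovl6 (chr3:129235304-129341411) stand alone. All 10 rows are protein-coding transcripts with 1.51 to 5.95 kb of exon. The Scd genes are close copies of each other. Of all 50-base words in their transcripts, 4.66% of Scd1, 3.79% of Scd2, 6.63% of Scd3 and 5.53% of Scd4 also occur in transcripts of other genes, mostly of the same family, against 0.779% or less for the other members. Reads from such stretches could have been credited to the wrong copy. Scd4, with by far the lowest FPKM of the 4, is the most uncertain of them.

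Promoter windows in RefSeq (GRCm38.p6, 250 bases before to 50 after the annotated start) were matched for 6 of the 10 genes. Genes with opposite changes can be compared in the windows shown. These are of Scd3, which rose in untransduced adipocytes, and of Elovl6, Fads2 and Fads3, which fell there. Each is written 5′ to 3′ on its gene's strand, and capitals mark matches on either strand to CCAAT (bound by NF-Y), CACGTG (an E-box), AGGTCA (a nuclear receptor half-site) or TATAAA. No 2 matches overlapped in these windows.
Scd3 (chr19:44203038-44203337, plus strand): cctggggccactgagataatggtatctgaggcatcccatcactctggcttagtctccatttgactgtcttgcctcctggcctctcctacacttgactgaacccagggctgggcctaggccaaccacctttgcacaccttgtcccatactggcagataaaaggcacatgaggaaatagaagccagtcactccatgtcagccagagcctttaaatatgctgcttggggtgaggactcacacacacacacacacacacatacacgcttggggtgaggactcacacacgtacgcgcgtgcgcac
Elovl6 (chr3:129532136-129532435, plus strand): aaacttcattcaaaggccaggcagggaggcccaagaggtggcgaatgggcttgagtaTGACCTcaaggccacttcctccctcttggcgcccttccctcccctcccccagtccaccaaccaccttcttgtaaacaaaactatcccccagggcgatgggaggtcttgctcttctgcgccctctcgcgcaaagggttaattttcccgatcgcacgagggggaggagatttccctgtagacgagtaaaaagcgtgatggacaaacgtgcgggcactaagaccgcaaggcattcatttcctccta
Fads2 (chr19:10101454-10101753, minus strand): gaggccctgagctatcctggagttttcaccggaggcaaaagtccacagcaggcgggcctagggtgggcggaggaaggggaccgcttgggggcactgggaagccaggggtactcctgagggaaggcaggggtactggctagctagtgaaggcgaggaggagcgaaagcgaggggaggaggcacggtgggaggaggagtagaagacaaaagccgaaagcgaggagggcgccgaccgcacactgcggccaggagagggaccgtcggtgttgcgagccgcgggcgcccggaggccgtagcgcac
Fads3 (chr19:10041298-10041597, plus strand): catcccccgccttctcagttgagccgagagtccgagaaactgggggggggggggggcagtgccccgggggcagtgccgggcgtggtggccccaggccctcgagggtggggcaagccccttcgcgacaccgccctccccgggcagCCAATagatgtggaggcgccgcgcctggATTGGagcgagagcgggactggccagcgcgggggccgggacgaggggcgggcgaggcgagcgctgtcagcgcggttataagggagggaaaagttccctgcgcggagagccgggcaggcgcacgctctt
The Fads3 window held CCAAT at 2 places and the Elovl6 window AGGTCA at 1, on the reverse strand. The Scd3, Scd4 and Fads2 windows held none of the 4 motifs. The Elovl5 window, of a gene that differed little between conditions, held CCAAT at 2 places and CACGTG at 1. Among 32851 windows of this length, 37.4% held CCAAT, 7.15% CACGTG, 16.3% AGGTCA and 13.6% TATAAA, so these matches are common and are given as a description. The windows of Scd1, Scd2, Fads1 and Elovl3 are not shown, nor is one for a shorter listed Scd3 transcript (start at chr19:44312305 in mm9).

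**Figure D1:**
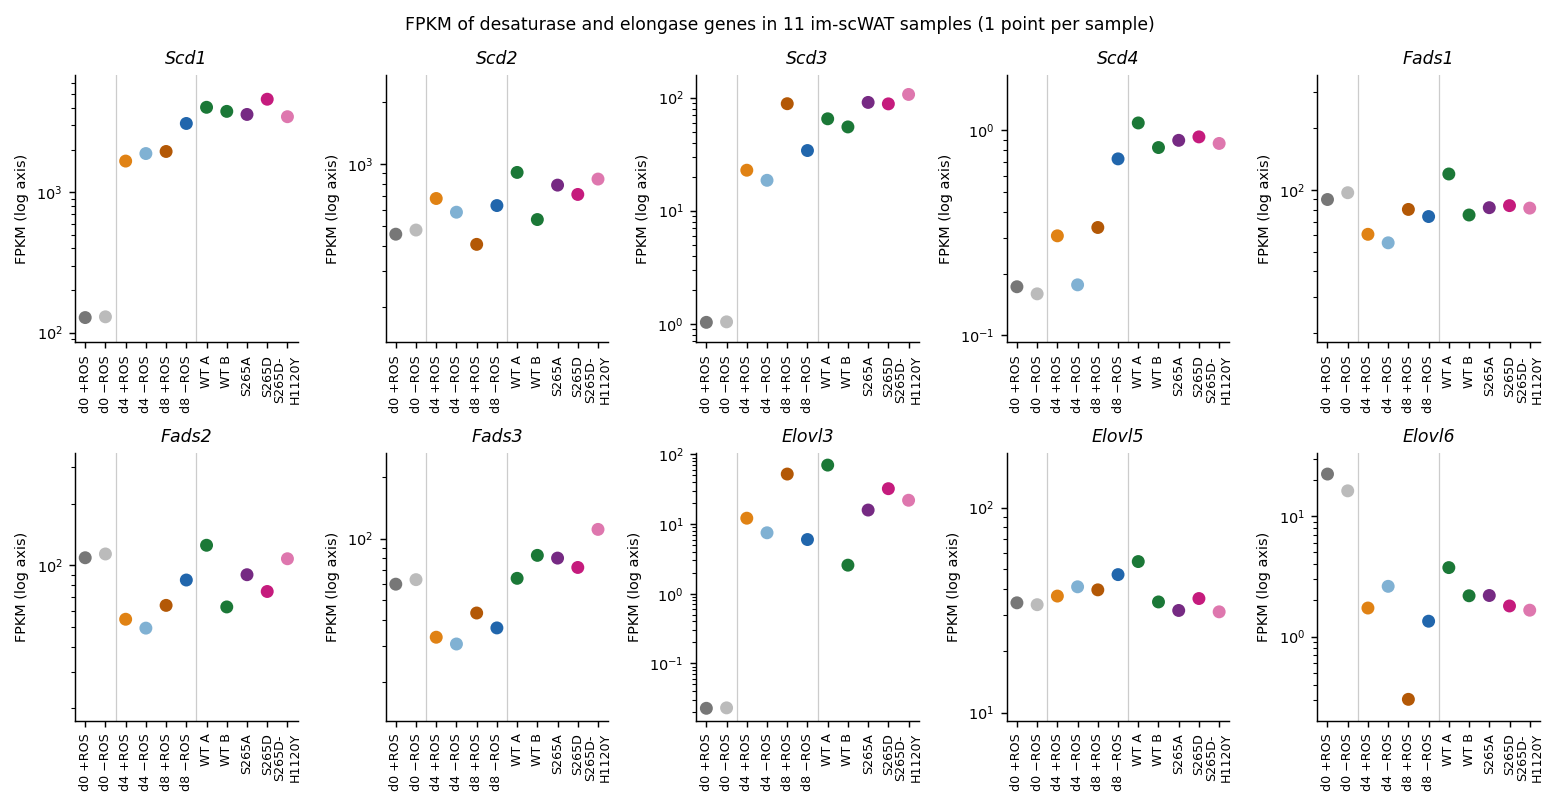
FPKM on a log axis for each of the 10 genes in the 11 samples, 1 point per sample, with grey lines between day 0, the adipocytes of days 4 and 8, and the transduced adipocytes. Scd1, Scd3 and Elovl3 sit far higher in adipocytes than at day 0, Elovl6 sits far lower, and Elovl5 stays between 31.0 and 54.5 FPKM throughout.

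The first comparison asked how the genes differed between adipocytes (4 samples of days 4 and 8) and preadipocytes (2 samples of day 0). Scd1, Scd3 and Elovl3 rose and Elovl6, Fads2 and Fads3 fell. In limma on log2(FPKM + 0.1), with Benjamini-Hochberg adjustment over the 16400 genes that reached an FPKM of 0.1 in any of the 6 samples, 3 of the 10 genes were higher at an adjusted p under 0.05, as were 21.0% of all genes. Another 3 were lower, against 19.9% of all genes. The 10 genes had a median log2 difference of 0.27, and all tested genes of -0.01. These shares are near the background, and the genes are therefore described singly. The 4 adipocyte samples differed in day and in ROS, and that is part of their spread. All values of the 4 adipocyte samples lay above those of day 0 in 5 of the 10 genes (31.0% of all genes) and below them in 4 (30.8% of all genes). Scd2 alone overlapped.

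Scd1, the main stearoyl-CoA desaturase of mouse adipocytes, had an FPKM of 128 and 130 in the samples of day 0. It reached 1672 with ROS and 1892 without at day 4, and 1957 with ROS and 3100 without at day 8. The samples of day 0 were nearly equal and far below all adipocytes, with means of 129 ± 1.11 (SD, n = 2) and 2155 ± 641 (SD, n = 4). The log2 difference was 4.02 (SE 0.27, adjusted p = 7.8e-05, limma), a 16.2-fold rise. Scd1 ranked 583 and 609 among the 29955 symbols at day 0 and between 5 and 19 in the 9 adipocyte samples, where it made up 0.331 to 0.965% of all FPKM.

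Scd2, the form known from brain and from early development, was the most abundant Scd transcript of preadipocytes. Its FPKM was 455 and 477 at day 0, 679 with ROS and 582 without at day 4, and 406 with ROS and 628 without at day 8. The day 8 sample with ROS lay below day 0 and the other adipocytes above it, and the log2 difference of 0.27 was within the spread (SE 0.23, 95% interval -0.27 to 0.82, adjusted p = 0.370, limma). The make-up of the family therefore turned over. Scd2 held 77.9% and 78.5% of the summed Scd FPKM at day 0, and Scd1 held 70.4 to 86.5% of it in the 9 adipocyte samples.

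**Figure D2:**
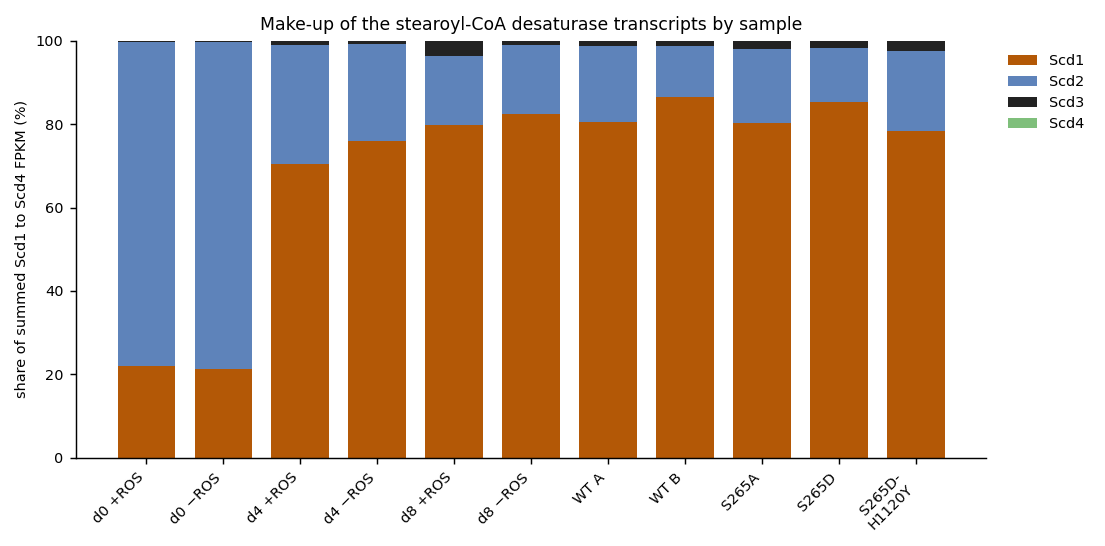
Share of the summed FPKM of Scd1 to Scd4 in percent, stacked by gene, for each of the 11 samples. Scd2 fills most of the bar at day 0 (77.9% and 78.5%), and Scd1 fills at least 70.4% of it in each adipocyte sample.

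Scd3, which is best known from sebaceous glands of the skin, had an FPKM of 1.03 and 1.04 at day 0. It was 22.8 with ROS and 18.6 without at day 4, and 88.3 with ROS and 34.0 without at day 8. Every adipocyte sample was far above day 0, with means of 1.03 ± 0.00739 (SD, n = 2) and 40.9 ± 32.3 (SD, n = 4). The log2 difference was 4.89 (SE 0.56, adjusted p = 0.00073, limma). A shorter listed Scd3 transcript (chr19:44312305-44318506) had 0.0193 and 0.0410 FPKM at day 0 and 7.61 to 68.4 in the same adipocytes. Of the keratinocyte and sebocyte markers, Krt79 rose beside Scd3 (log2 difference 4.69, adjusted p = 0.00319, limma) to 10.6 FPKM at day 8 with ROS, while Krt5 and Krt14, which define keratinocytes, stayed at 0.20 FPKM or less in every sample. The part of such cells in the Scd3 values was not tested.

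Scd4, described in heart, had the lowest level of the family. Its FPKM was 0.173 and 0.160 at day 0, 0.306 with ROS and 0.177 without at day 4, and 0.336 with ROS and 0.727 without at day 8. The values of adipocytes were all above those of day 0 but spread over 4.12-fold, and the log2 difference of 0.75 did not pass the test (SE 0.43, 95% interval -0.25 to 1.76, adjusted p = 0.198, limma).

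The Fads cluster went the other way. Fads2, the rate-limiting desaturase of polyunsaturated fatty acid synthesis, had an FPKM of 109 and 113 at day 0. It was 54.5 with ROS and 49.3 without at day 4, and 63.7 with ROS and 84.7 without at day 8. All adipocytes were below day 0, with a log2 difference of -0.85 (SE 0.22, adjusted p = 0.0185, limma). Fads3, its nearest neighbour, had 59.9 and 63.1 FPKM at day 0, 33.0 with ROS and 30.6 without at day 4, and 43.3 with ROS and 36.7 without at day 8. Here too no adipocyte value reached day 0, and the log2 difference was -0.79 (SE 0.16, adjusted p = 0.0080, limma). Fads1, the next desaturase of the polyunsaturated pathway, had 89.7 and 96.9 FPKM at day 0, 60.7 with ROS and 55.2 without at day 4, and 80.3 with ROS and 74.1 without at day 8. Its groups did not overlap either, but its log2 difference of -0.48 missed the threshold (SE 0.18, 95% interval -0.90 to -0.06, adjusted p = 0.066, limma).

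The calls of Fads2 and Fads3 rested on the untransduced cells. With the 5 transduced samples added to the adipocytes the log2 difference of Fads2 was -0.55 (adjusted p = 0.173, limma) and that of Fads3 was -0.13 (adjusted p = 0.833). In those 5 samples Fads3 had 64.0 to 111 FPKM, all above day 0, and Fads2 had 62.6 to 125. Without either sample of day 0, 3 of the 10 genes were called in place of 6, and Elovl6, Fads2 and Fads3 had adjusted p-values between 0.0557 and 0.141.

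The 3 elongases differed most from each other. Elovl3, which makes saturated and monounsaturated very long chains, had an FPKM of 0.0226 and 0.0229 at day 0, resting on 198 and 200 mapped bases. It was 12.2 with ROS and 7.50 without at day 4, and 52.3 with ROS and 6.0 without at day 8. Preadipocytes were thus near the limit of detection and every adipocyte sample was far above it. The log2 difference was 6.74 (SE 0.79, adjusted p = 0.000799, limma), a value that depends on the pseudocount and became 3.80 with a pseudocount of 1.

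Elovl6, which lengthens palmitate to stearate, went down. Its FPKM was 22.3 and 16.2 at day 0, 1.73 with ROS and 2.61 without at day 4, and 0.302 with ROS and 1.34 without at day 8. All adipocytes were below day 0 and the day 8 sample with ROS was the lowest of the 11. The mean of day 0 was 19.3 ± 4.33 (SD, n = 2). The log2 difference was -3.88 (SE 0.69, adjusted p = 0.0043, limma), a 14.7-fold fall. Elovl5, the elongase of polyunsaturated acids, had 34.3 and 33.6 FPKM at day 0, 37.0 with ROS and 41.1 without at day 4, and 39.7 with ROS and 47.1 without at day 8. Its values were above those of day 0 by little, and the log2 difference of 0.27 did not pass the test (SE 0.14, 95% interval -0.05 to 0.59, adjusted p = 0.148, limma).

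**Figure D3:**
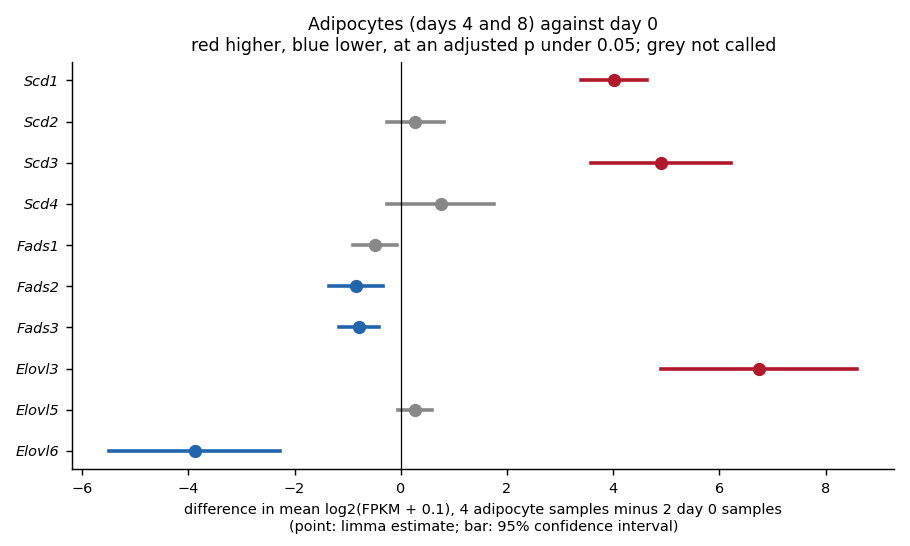
Difference in mean log2(FPKM + 0.1) between the 4 adipocyte samples of days 4 and 8 and the 2 samples of day 0 for each gene, with the limma estimate as a point and its 95% confidence interval as a bar. Scd1, Scd3 and Elovl3 lie right of 0 at 4.02, 4.89 and 6.74, and Fads2, Fads3 and Elovl6 lie left of it at -0.85, -0.79 and -3.88.

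Enzymes that work with the members were read in the same test. Of 9 tested genes of the elongation cycle besides the members, 4 rose, 2 fell and 3 did not pass, with a median log2 difference of 0.23. Ptplb, a dehydratase of the cycle, rose by 3.13 on the log2 scale (adjusted p = 1.03e-05, limma). Elovl4, an elongase of very long chains, rose by 2.52 (adjusted p = 0.00162) and Hsd17b12, the ketoacyl reductase of the cycle, by 2.04 (adjusted p = 0.00173). Elovl1 had a log2 difference of -0.85 (adjusted p = 0.0119) and Ptplad2 of -1.97 (adjusted p = 0.00397). Tecr, the enoyl reductase, was at 145 and 157 FPKM at day 0 and at 150 to 172 in adipocytes and did not pass. The elongation cycle thus held genes that moved either way, as did the Elovl members themselves.

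Of 7 tested genes among electron carriers and further desaturases, 3 rose, 1 fell and 3 did not pass, with a median log2 difference of 0.04. Cyb5, which hands electrons to the desaturases, rose by 1.88 (adjusted p = 0.000793, limma), from 204 and 225 FPKM to between 659 and 1014. Cyb5r3, a reductase of cytochrome b5, fell by 0.88 on the log2 scale (adjusted p = 0.00288), and Cyb5r1 rose by 1.47 (adjusted p = 0.00182). Of 9 genes of substrate supply 5 rose and 3 fell, with a median log2 difference of 1.27. Acsl1, which activates fatty acids to their CoA esters, rose by 5.70 (adjusted p = 0.000448), Fasn, the fatty acid synthase, by 2.19 (adjusted p = 0.000763) and Acaca, the carboxylase that makes malonyl-CoA, by 1.27 (adjusted p = 0.000625). Acly, Acsl3 and Acsl4 fell. Of 12 regulators 8 rose and 1 fell, with a median of 2.58. Srebf1, an activator of lipogenic genes, rose by 2.19 (adjusted p = 5.03e-05), while Srebf2, which acts mainly on cholesterol genes, had a log2 difference of -1.75 (adjusted p = 0.000212). Mlxipl and Nr1h3, the genes of ChREBP and LXRα, rose by 6.52 and 6.55 (adjusted p = 5.43e-05 and 1.74e-05).

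The next comparison asked what ROS did to the same genes. Each day had 1 sample per arm, so a difference was called at a ratio of FPKM of at least 2 or at most 0.5, without a test. At day 4, 0 of the 10 genes passed, against 6.70% of 15246 genes, and the ratios went from 0.661 for Elovl6 to 1.73 for Scd4. At day 8, Elovl3 (ratio 8.72) and Scd3 (2.60) were higher with ROS, where 4.00% of 15536 genes were, and Elovl6 (0.225) and Scd4 (0.463) were lower, where 15.2% were. In the preadipocyte pair of day 0, which had no difference in treatment, 0 of 9 genes passed, against 4.90% of all genes, and the widest ratio was 1.38 for Elovl6.

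Most other members did not follow Elovl3. Scd1 was lower with ROS at day 8, with a ratio of 0.631, and so were Scd2 (0.647), Fads2 (0.752) and Elovl5 (0.843), all within 2-fold. Fads1 (1.08) and Fads3 (1.18) were close to equal. The whole table leaned the same way, with a median log2 ratio of -0.22 over all genes against -0.33 over the members, and rescaling by the median of ratios moved the median of all genes to -0.02. Relative to that shift Scd4 fell short of 2-fold (log2 ratio -0.92), and the calls of Elovl3 (3.32), Scd3 (1.57) and Elovl6 (-1.96) stayed. With 1 added to FPKM, Elovl6 (-0.85) and Scd4 (-0.37) fell short of 2-fold.

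A limma fit that averaged ROS over days 4 and 8 (2 residual degrees of freedom) called 0 of 16400 genes (0.00%). The smallest adjusted p was 0.0981, and 3260 genes had an unadjusted p under 0.05, 3 of them among the members. These were Elovl3 (log2 difference 1.90, SE 0.52, adjusted p = 0.166), Elovl6 (-1.21, SE 0.33, adjusted p = 0.167) and Scd3 (0.83, SE 0.25, adjusted p = 0.178). With the spread taken from the day 0 pair alone (1 residual degree of freedom), 0 genes were called for ROS at day 8 and 5139 had an unadjusted p under 0.05, 8 members among them. With the spread of both pairs, in 1 fit over all 11 samples, these were 1251 genes and 2 members, again with 0 calls. That pair was closer than the WT pair, with a median absolute log2 ratio of 0.133 against 0.51 over all genes. With the day 0 pair alone, Elovl3 had a log2 difference of 3.10 (SE 0.11, adjusted p = 0.101, limma).

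The next values follow each arm from day 4 to day 8. With ROS, Elovl3 rose 4.31-fold and Scd3 3.87-fold, and both passed 2-fold, as did 6.62% of 15206 genes. Elovl6 had a ratio of 0.175, where 7.99% of genes were at most 0.5. Without ROS, Elovl3 had a ratio of 0.800, Scd3 of 1.83 and Elovl6 of 0.514, and Scd4 was the only member past 2-fold (4.12), as were 9.60% of 15607 genes. Scd1 went from 1672 to 1957 FPKM with ROS (ratio 1.17) and from 1892 to 3100 without (1.64), and Scd2 had ratios of 0.597 and 1.08. Each of these rests on single samples. The difference of the ROS effect between the days was called for 0 of 16400 genes in limma (2875 at an unadjusted p under 0.05), with log2 differences of 2.42 for Elovl3 (adjusted p = 0.260), 1.08 for Scd3 (adjusted p = 0.260) and -1.27 for Elovl6 (adjusted p = 0.361). In limma, 0 genes differed between days 8 and 4 in either arm at an adjusted p under 0.05, and 4636 with ROS and 4518 without had an unadjusted p under 0.05.

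Beside Elovl3, 5 of the 6 tested beige or brown markers were at least 2-fold higher with ROS at day 8, and their sum was 329 FPKM with ROS and 87.8 without. Of the preadipocyte markers 4 of 6 were lower with ROS, with a sum of 139 FPKM with ROS and 571 without. Ly6a (Sca-1) made up most of that sum, with 108 and 495 FPKM. The adipocyte markers summed to 37657 with ROS and 12174 without, mostly from Fabp4 (31402 and 7631). Of the 10 adipocyte markers 2 were at least 2-fold higher with ROS and 1 was at most 0.5, with a median log2 ratio of 0.49. Most beige or brown and preadipocyte markers thus differed between the arms along with Elovl3, Scd3 and Elovl6. The part of the cells behind any of these markers in the differences was not tested.

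Regulators of the pathway were read in the same pair. Of 12 regulators 2 were at least 2-fold higher with ROS at day 8 and 0 lower, with a median log2 ratio of 0.25. Insig1, which holds SREBP proteins back in the endoplasmic reticulum, had 313 FPKM with ROS and 90.4 without at day 8, and 367 with ROS and 170 without at day 4. Ppara, a receptor that drives fatty acid oxidation genes, had 9.77 with ROS and 2.28 without at day 8. Srebf1 was nearly equal there, with 184 and 197. Acacb and Acsl1 were the 2 of 9 genes of substrate supply past 2-fold, both higher with ROS (ratios 3.70 and 2.42). The medians were -0.20 for the elongation cycle, -0.25 for the electron carriers and -0.23 for substrate supply, near that of all genes.

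In transduced adipocytes the WT pair set how far a mutant could be read. The 2 WT samples were 2-fold or more apart in 27.2% of 15837 genes. Of the members, Elovl3 alone was, lower in WT B like 10.8% of all genes. Its FPKM was 70.4 in WT A but 2.57 in WT B. WT B lay below WT A in 9 of the 10 genes, and in 46.1% of all genes. The exception was Fads3, with 64.0 in WT A and 82.8 in WT B. Fads2 was at the edge of the cutoff (125 and 62.6 FPKM), and Scd1 was close to equal (4042 and 3781). Acaca, Fasn and Srebf1 were lower in WT B as well, with ratios of 0.402, 0.508 and 0.426, and 5 of 9 genes of substrate supply and 5 of 12 regulators were at most 0.5. From WT A to WT B the sum of the preadipocyte markers went from 146 to 569 FPKM. That of the beige or brown markers went from 253 to 108. The adipocyte sum went from 16475 to 30200, mostly from Fabp4 (12393 and 26902). Of the 10 adipocyte markers 2 were at least 2-fold higher in WT B and 1 was at most 0.5. Their median log2 ratio was -0.57, against the direction of the sum. Muscle actin (Acta1) rose from 1.40 to 19.3. The part of the cells behind these markers in the Elovl3 values was not tested.

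The S265A sample lay between WT A and WT B in 7 of the 10 genes, as in 53.2% of 16402 genes. Against the WT mean, Elovl3 was the only member past 2-fold, with 15.9 FPKM in S265A and a ratio of 0.436 (7.55% of 16051 genes were at most 0.5). The sample was below WT A (ratio 0.226, where 8.32% of 15669 genes were at most 0.5). It was above WT B (6.19, where 5.07% of 15706 genes were at least 2), so the direction turned with the WT sample. It also turned with the type of mean. In limma, which averages WT A and WT B on the log2 scale, Elovl3 had a log2 difference from WT of 0.22. Scd3 was above both WT samples, with 90.6 FPKM in S265A against 64.9 and 55.0. Scd1 with 3595 was just below both. Elovl5 with 31.5 was below both as well, close to WT B (34.6) but at a ratio of 0.577 to WT A (54.5). All 3 of these genes stayed within 2-fold.

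The S265D sample was compared with the same 2 WT samples as S265A. The labels do not say which WT sample was cultured with which mutant, so ratios to the WT mean may mix sets of cultures. S265D lay between WT A and WT B in 7 of the 10 genes too (55.8% of all genes). From the WT mean 0 members passed 2-fold, against 9.58% of 16089 genes. In limma, on the log2 scale, Elovl3 had a difference from WT of 1.24, while its ratio to the arithmetic WT mean was 0.884. Elovl3 had 32.3 FPKM, again below WT A (ratio 0.458) and above WT B (12.5, where 5.28% of 15734 genes were at least 2). Elovl6 was also at most 0.5 of WT A (0.480), and these 2 members stood beside 7.71% of 15788 genes. Scd1 had 4615 FPKM, the highest of the 11 samples, and Scd3 had 88.0. Elovl6 had 1.80 FPKM, below 3.74 and 2.18 in the WT pair. Between the mutants, Elovl3 was higher in S265D than in S265A by 2.03-fold, past the cutoff like 7.45% of 15692 genes, and the other 9 genes had ratios from 0.819 to 1.28.

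With the demethylase inactivated, 5 of the 10 genes lay between WT A and WT B (41.7% of all genes), and 0 of the 10 genes passed 2-fold from S265D, against 14.3% of 15760 genes. Elovl3 had 22.0 FPKM in S265D-H1120Y, a ratio of 0.682, and Scd1 had 3465, a ratio of 0.751. Fads3 (111 FPKM, ratio 1.53) and Fads2 (108 FPKM, ratio 1.44) were higher, and Scd3 at 107 FPKM was at its highest among the 11 samples. In limma 0 genes differed at an adjusted p under 0.05 for S265A against WT, S265D against WT, S265D against S265A or S265D-H1120Y against S265D. The smallest adjusted p was 1 in each, and 73, 77, 58 and 146 genes had an unadjusted p under 0.05, with 0 members among them. The spread in this test is the WT pair alone. In 1 fit over all 11 samples these numbers were 557, 419, 586 and 928, with 1 member in each of the comparisons with WT, and 0 genes were called.

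**Figure D4:**
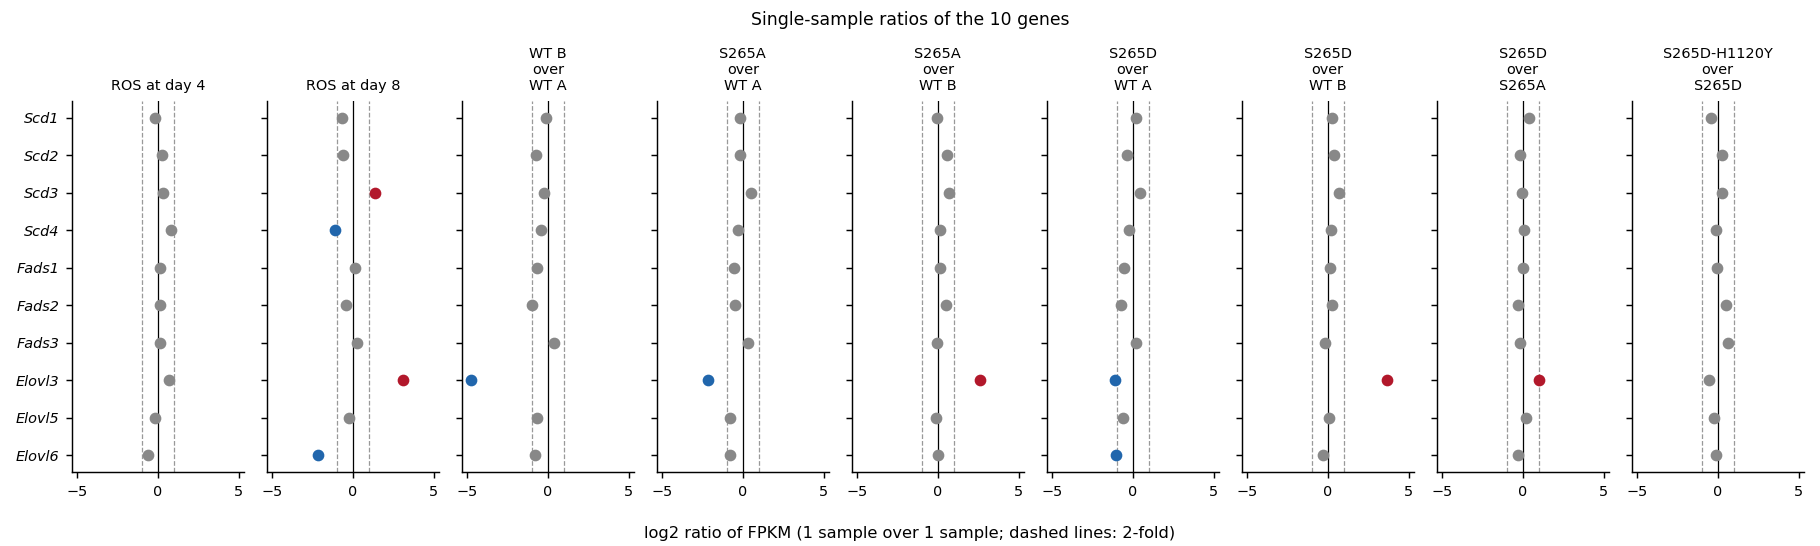
Log2 ratio of FPKM for the 10 genes in 9 comparisons of 1 sample with 1 other, with dashed lines at 2-fold. Elovl3 leaves the band upward for ROS at day 8, for both mutants over WT B and narrowly for S265D over S265A, and downward for WT B over WT A and for both mutants over WT A.

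Against the untransduced day 8 sample with ROS, all 5 transduced samples were higher in Scd1, Scd2, Scd4, Fads3 and Elovl6, 5 of the 10 genes, where 28.6% of 16494 genes were, and 0 were lower in all 5, where 22.8% were. Scd1 had 3465 to 4615 FPKM against 1957, Scd4 0.826 to 1.09 against 0.336, and Elovl6 1.66 to 3.74 against 0.302. The adipocyte markers summed to 16391 to 30200 FPKM in the transduced samples and to 37657 in the untransduced sample, mostly from Fabp4 in each. The preadipocyte markers summed to 146 to 569 and to 139. Transduction, selection and culture differ together between these sets and cannot be told apart.

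Elovl3 had the widest range of the 10 genes. In falling order its FPKM was 70.4 in WT A, 52.3 at day 8 with ROS, 32.3 in S265D, 22.0 in S265D-H1120Y, 15.9 in S265A, 12.2 at day 4 with ROS, 7.50 at day 4 without, 6.0 at day 8 without and 2.57 in WT B, and then 0.0229 and 0.0226 at day 0. WT A and WT B were the highest and the lowest of the 9 adipocyte samples, 27.4-fold apart. The spread of the only replicated adipocyte group was thus the range itself, and no step between neighbours in this order can be judged against it. Day 0 lay far below all 9.

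The markers Ucp1, Cidea and Cox8b were read beside it. Ucp1, the uncoupling protein of thermogenic fat, had 9.90 FPKM at day 8 with ROS and 0.10 without, and the WT pair had 12.1 and 0.72. Cidea, a lipid droplet protein of brown fat, had 40.8 FPKM at day 8 with ROS and 1.34 without, and 33.2 and 7.03 in the WT pair. Cox8b, a muscle and brown fat form of a cytochrome oxidase subunit, had 117 and 40.3, and then 74.6 and 13.5. In these 4 samples Ucp1, Cidea and Cox8b were high where Elovl3 was. Cox7a1, another subunit of cytochrome oxidase, differed less in the WT pair, with 123 and 83.8 FPKM. In S265D, where Elovl3 was at 32.3, Cidea (43.4) and Cox8b (73.7) were near or above WT A and Ucp1 (4.67) below it. At day 4 Elovl3 was already at 12.2 and 7.50 FPKM, where Ucp1 had 0.04 and 0.00, Cidea 0.12 and 0.11, and Cox8b 1.24 and 1.58. Cox7a1 was above Elovl3 at that day, with 14.7 and 10.5. In S265D-H1120Y, where Elovl3 was at 22.0, the markers differed among themselves, with 0.05 FPKM of Ucp1, 2.35 of Cidea, 57.8 of Cox8b and 8.75 of Ppargc1a.

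**Figure D5:**
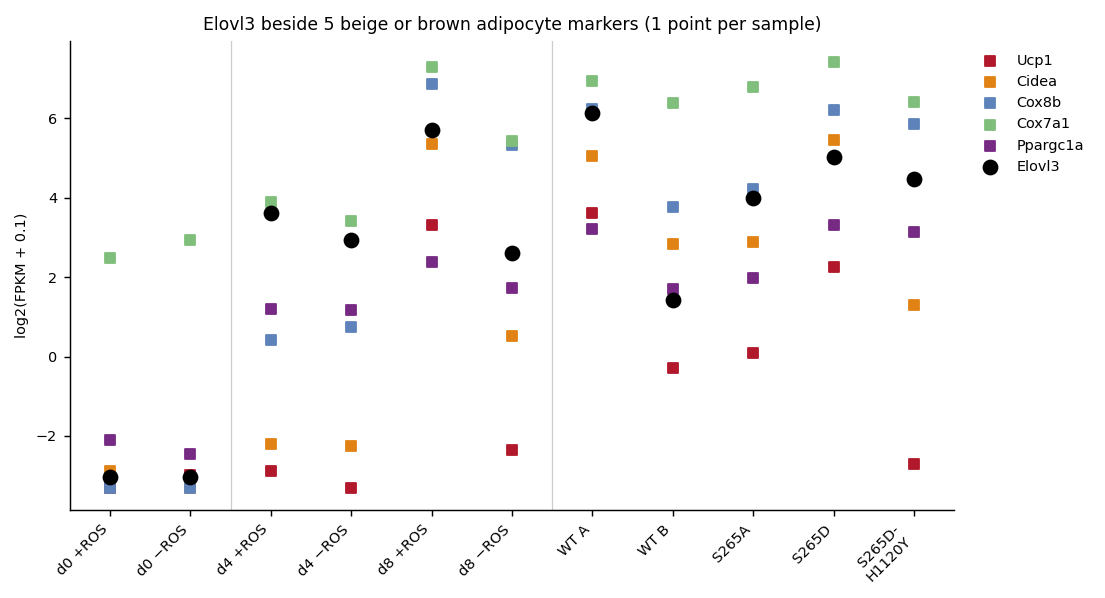
log2(FPKM + 0.1) of Elovl3 (black circles) and of 5 beige or brown adipocyte markers (coloured squares) in the 11 samples, 1 point per sample. At day 4 Elovl3 sits well above Ucp1 and Cidea (12.2 and 7.50 FPKM against at most 0.12), and in WT B it falls to 2.57.

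The genes most like each member were taken by the smallest root mean square difference between centred log2(FPKM + 0.1) values over the 11 samples, among 13615 genes that reached an FPKM of 1 in any sample. For Elovl3 the nearest was Ces1d, a carboxylesterase, at 0.72 on the log2 scale, where Elovl3 itself had an SD of 3.00. Ces1d had 33.7 FPKM at day 8 with ROS and 7.77 without, and the WT pair had 105 and 9.88. Tmem45b (0.89), Aldh3b2 (0.93), Fmo1 (0.95) and Lrg1 (0.97) followed.

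For Scd3 the nearest were Selenbp1 (0.35), a selenium-binding protein, and Atp2a3 (0.39), a calcium pump, and for Scd1 they were Olfm2 (0.32) and Lama4 (0.35), a laminin chain. Elovl6 had a row under another symbol, FAE, over the same span of chromosome 3, at nearly the same values (0.0076), and after it Sytl2 (0.40) and F2r (0.52), the thrombin receptor. The nearest row to Fads2 was AK192544 (0.07), a noncoding row next to the 3′ end of Fads2. For Elovl5, which hardly varied, the first 5 genes lay between 0.10 (Zdhhc4) and 0.11 (Lrch4), and with an SD of 0.24 such likeness is shared with many steady genes.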

How the data were processed

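RNA-seq files of 11 samples were read in. The authors aligned reads to UCSC transcripts and the mouse genome mm9 with BWA, realigned the rest locally (word length 11), counted mapped bases by strand and deposited the coverage (mapped bases) and FPKM of each transcript. Tool versions are not given in the sources used here. FPKM equalled mapped bases over exon length and the total, 3.10 to 5.29 Gb per sample. Mapped bases are not counts, so no count test was run.

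From the deposited FPKM, the sense row marked representative of each symbol was taken. Adipocytes were compared with day 0 in limma 3.58.1 (R 4.3.3, trended prior) on log2(FPKM + 0.1) over genes that reached 0.1, with Benjamini-Hochberg adjustment over all of them. The same tool was used for every adjusted p, also for single samples with 1 residual degree of freedom. Single samples were called at a ratio of at least 2 or at most 0.5. In ratios, WT was the arithmetic mean of its 2 samples. Python 3.11.15 (pandas 2.3.3, scipy 1.17.1, matplotlib 3.10.9) did the rest. The limma script was tested on simulated data.

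All 10 members are named, and of the pathway and marker lists those with the largest and smallest values. Members and lists were chosen with earlier results of these data known. The most alike genes are the 5 nearest by root mean square difference. Alternatives were other pseudocounts, FPKM minimums, scaling by the median of ratios, other transcript rows, the transduced samples and each sample left out.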

Additional observations from a re-analysis of the deposited data

Results flagged for a closer look

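The ratio with over without ROS turned direction between the days in 3 genes. On the log2 scale Scd2 went from 0.22 at day 4 to -0.63 at day 8, Scd4 from 0.79 to -1.11 and Fads2 from 0.14 to -0.41. In the untreated pair of day 0 the same measure had a size of 0.07 for Scd2, 0.12 for Scd4 and 0.06 for Fads2. In limma the difference of the ROS effect between the days had an adjusted p of 0.267 for Scd2, 0.260 for Scd4 and 0.266 for Fads2, so none was called. Each value rests on single samples, and Scd4 on levels below 1 FPKM.

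Among the 4 untransduced adipocyte samples, Elovl3 at day 8 with ROS stood apart from the other 3. Its FPKM of 52.3 left a gap to the next sample of 0.867 of the whole range. The comparison was made on FPKM without a log scale for each of the 10 genes, its cutoff lets about 1 in 20 groups pass by chance, and these 4 samples differ in day and in ROS.

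Antisense reads lay over Scd1 and Scd3 in adipocytes. The lowest antisense FPKM of Scd1 in the 4 adipocyte samples was 1.03, where the higher value of day 0 was 0.134, and that of Scd3 was 0.284, where the higher value of day 0 was 0.0616. As a share of sense FPKM, antisense was lower in adipocytes. For Scd1 it was 0.0925 to 0.104% at day 0 and 0.0424 to 0.0657% in the 9 adipocyte samples, and for Scd3 2.38 to 5.92% and 0.374 to 1.53%. Over all symbols, sense rows held 97.72 to 98.48% of the bases mapped to either strand. Antisense thus took a smaller share over Scd1 than over the whole.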

How the results depend on the processing

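Of 768 values of single members under the alternatives, 703 stayed within the replicate spread or on their side of the threshold. Many of the 768 could not change, so this total does not measure robustness. Taking the row with the highest mean (110 values) left every member on its representative row. An FPKM minimum does not alter a ratio, and only Scd3, Fads1, Fads2 and Elovl6 had another listed transcript. For mutants against WT the spread allowed was that of the WT pair, which is wide for Elovl3. The sign changed in 16 of the 768, of which 14 were mutants against WT without 1 WT sample and 2 were the other listed transcript. Of these 16, Elovl3 between S265A and WT was the only value past 2-fold in the original direction. Of 78 counts of members, which come from the same settings, 69 stayed within 1.5 times. Scd1, Scd3 and Elovl3 kept their calls between adipocytes and day 0 under every alternative run. Leaving out 1 sample at a time, the number called there went from 3 (without either sample of day 0) to 8 (without day 8 with ROS, which added Scd2 and Fads1). Adding the transduced samples lost Fads2 and Fads3 and added Scd4 (adjusted p = 0.0468, limma), and no minimum FPKM lost Fads2 (adjusted p = 0.0882). With 1 added to FPKM, the members past 2-fold for ROS at day 8 were 2 in place of 4 (without Elovl6 and Scd4), those between days 8 and 4 without ROS 0 in place of 1, and those between S265D and S265A 0 in place of 1. A minimum FPKM of 1 also left 0 between days 8 and 4 without ROS, since Scd4 was then not tested. Scaling by the median of ratios gave 2 members in place of 1 between WT B and WT A. Without WT A, 1 member passed 2-fold between S265D and WT, and without WT B 2 did, in place of 0. The log2 ratio of Elovl3 between S265A and WT was 2.63 without WT A and -2.15 without WT B, and between S265D and WT it was 3.65 without WT A. The median absolute log2 ratio over all genes was 0.133 in the day 0 pair and 0.51 in the WT pair, so what a single sample can show depended on the pair. No paired analysis was possible because the labels number only the WT samples (A and B) and match neither to a mutant. Whether the mutants were cultured together, or each beside 1 WT sample, is not known from them. The fit that averaged ROS did match its arms by day.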
